A study of Homo sapiens with 6 samples.

Results

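The SLC25 mitochondrial carriers were examined in K562 cells with and without knockdown of lncRNA-IUR1. The members were taken as the protein-coding genes whose official symbol begins with SLC25A and a digit, after the Entrez identifiers of the deposited table had been matched to RefSeq symbols. RefSeq holds 48 such genes, and 41 of them were among the 12486 genes of the table. The other 7, SLC25A2, SLC25A27, SLC25A31, SLC25A47, SLC25A48, SLC25A52 and SLC25A53, are not listed in the table and were not analysed here. K562 is a leukemia cell line that carries Bcr-Abl, and all cells expressed a lentiviral shRNA stably. Control cells carried an shRNA against luciferase (sh-luc, 3 libraries), and knockdown cells carried an shRNA against lncRNA-IUR1 (sh-IUR1, 3 libraries), a transcript that the sample labels call lncRNA-up91. The labels name no drug for either group, and whether the cells were clones or pools is not given in the sources used here. Each group has an unnumbered library and libraries r1 and r2, and values are given in that order throughout. The methods speak of 3 independent groups of cells.

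Members of this family are small proteins of the mitochondrial inner membrane, built from a repeated unit of paired membrane helices. They exchange ADP for ATP, bring in phosphate, and move carboxylates, amino acids, cofactors, glutathione and iron between cytosol and matrix. A few relatives sit in the outer membrane or in peroxisomes. In erythroid cells, to which K562 is related, the iron and glycine carriers feed the synthesis of heme.

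Expression was measured by RNA-seq and is given in FPKM, fragments scaled by transcript length and library size, so levels of different members can be compared per length. The number of reads behind each value is unknown. The erythroid genes GATA1, KLF1 and HBZ had means of 194, 115 and 711 FPKM over the 6 libraries, whereas CD3E and PTPRC of other blood cells had 0.080 and 0.290 FPKM and MPO is not listed. The unnumbered sh-luc library stood apart from the other 5 libraries. Its score on the main axis of variation, which held 59.3% of the variance of log2(FPKM + 1), was -19.8, and the other scores lay between -3.75 and 13.0. The mean log2(FPKM + 1) of 17 listed genes of the integrated stress response was 5.17 in this library and between 5.95 and 6.42 in the others. Values of lncRNA-IUR1 itself were not analysed here, so its level gives no check of the labels.

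The carriers spanned a wide range of levels. The mean over the 6 libraries was at least 100 FPKM for 5 members, between 10 and 100 FPKM for 22, between 1 and 10 FPKM for 10 and under 1 FPKM for 4. The median member was at 12.4 FPKM, and the median of all 12276 genes tested was 10.6 FPKM. The summed level of the 41 members was 2407, 2414 and 2484 FPKM in sh-luc and reached 2451, 2507 and 2396 FPKM in sh-IUR1, so the groups overlapped. The 6 most abundant members, SLC25A5, SLC25A6, SLC25A3, SLC25A1, SLC25A39 and SLC25A10, made up between 77.3% and 78.0% of this sum in each library.

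**Figure D1:**
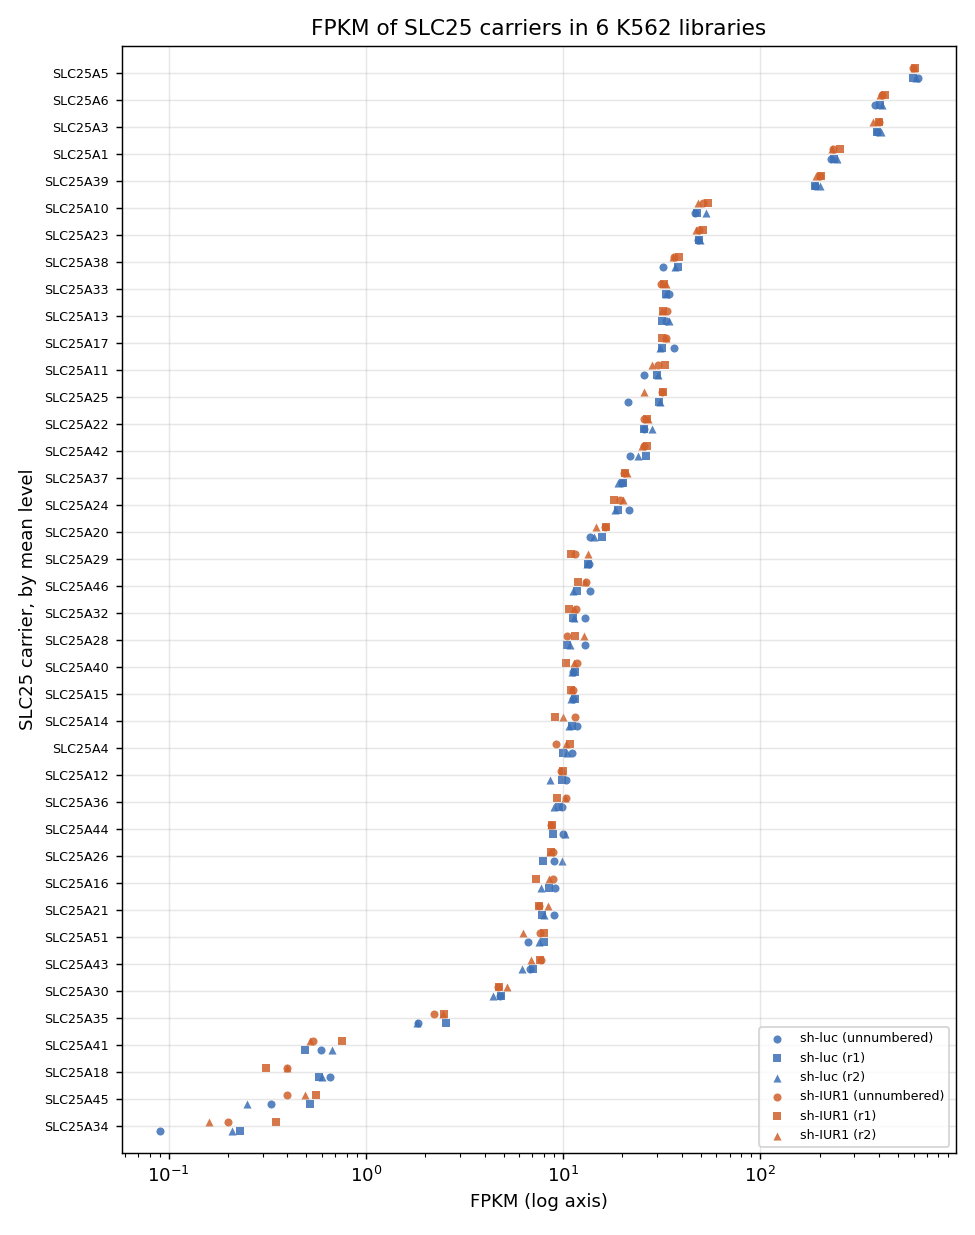
FPKM (log axis) of the SLC25 carriers, ordered by mean level, with sh-luc libraries in blue below and sh-IUR1 libraries in orange above each line. Circles are the unnumbered, squares the r1 and triangles the r2 libraries; SLC25A5 is at the top with a mean of 608 FPKM and SLC25A34 at the bottom with 0.207 FPKM.

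To ask whether loss of lncRNA-IUR1 altered the carriers, sh-IUR1 was compared with sh-luc by limma on log2(FPKM + 1) over all genes tested. Of the 41 carriers, 0 passed an adjusted p-value of 0.05, as did 0 (0%) of the 12276 genes tested. At an unadjusted p-value under 0.05 there was 1 carrier, SLC25A18, against 2.65% of all genes. The mean was higher in sh-IUR1 for 21 carriers (51.2%) and lower for 20. Among all genes it was higher for 58.0%, and for 48.9% after quantile normalization. The log2 fold changes of FPKM + 1 ran from -0.24 for SLC25A18 to 0.15 for SLC25A35, with a median of 0.0027 against 0.019 for all genes tested. The 95% interval of the log2 fold change lay within 0.5 of 0 for 41 of 41 carriers and for 11734 of 12276 genes tested. Among the carriers its ends were at -0.40 and 0.43 at the farthest. These intervals are per gene, without adjustment, and hold for FPKM + 1. With 0.1 rather than 1 FPKM added, the log2 fold change of SLC25A18 was -0.61, outside that limit. In bulk RNA, fewer cells with a transcript and less transcript per cell cannot be told apart.

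**Figure D2:**
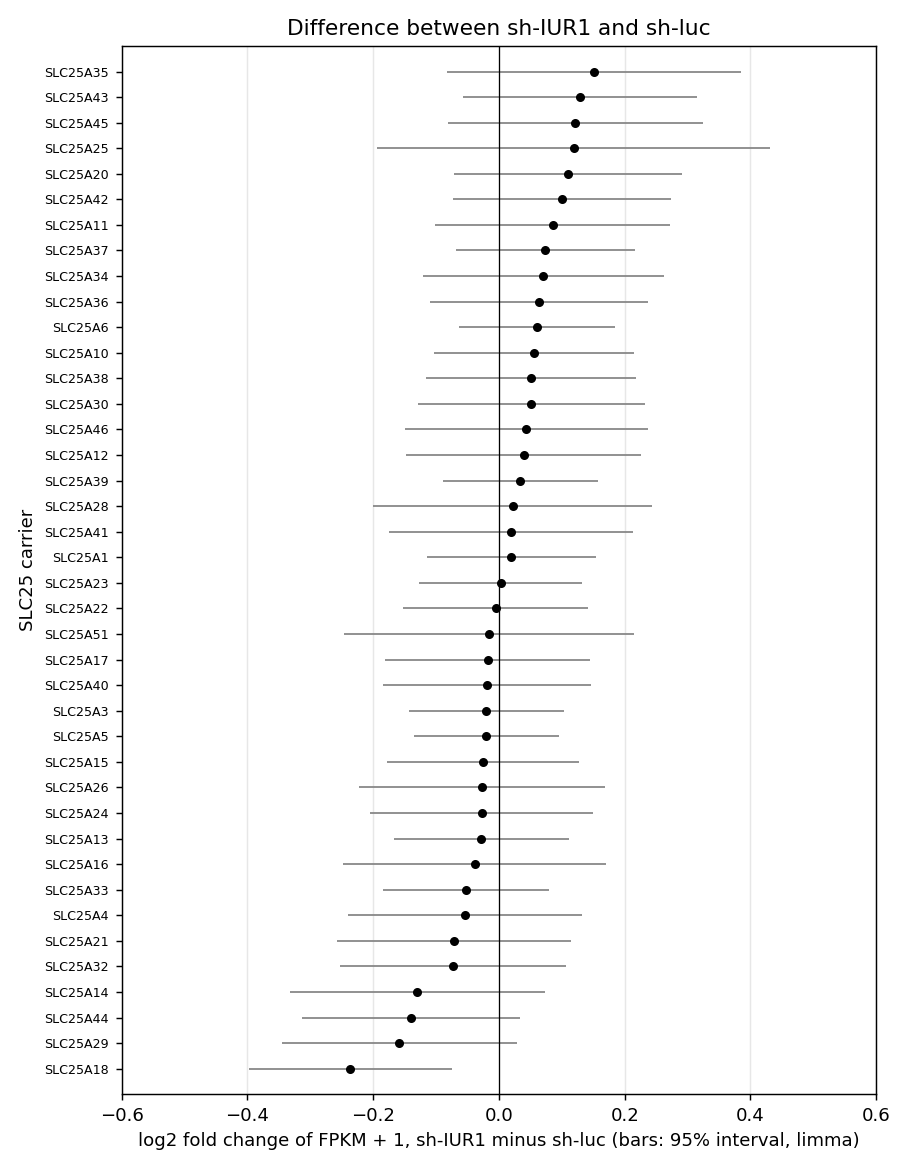
Log2 fold change of FPKM + 1, sh-IUR1 minus sh-luc, for the SLC25 carriers, with the 95% interval from limma as bars. The interval of SLC25A18, from -0.40 to -0.074, is the one that does not cross 0, and its adjusted p-value was 0.930.

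For 3 carriers the sh-luc and sh-IUR1 values were fully separate, namely SLC25A18, SLC25A44 and SLC25A37 (7.32%), against 7.07% of all genes tested. SLC25A37 was higher in sh-IUR1, where 4.04% of all genes were higher without overlap, and the other 2 were lower, where 3.03% were. With 3 libraries per group, an exact permutation test cannot give a p-value under 0.1. Any gene without overlap gets that value, so the test adds nothing to the lack of overlap.

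SLC25A18, a carrier of glutamate, lies on chromosome 22 from 17563498 to 17590995 (GRCh38.p14, RefSeq). It was expressed at 0.66, 0.58 and 0.60 FPKM in sh-luc and at 0.40, 0.31 and 0.40 FPKM in sh-IUR1. All 3 sh-IUR1 libraries were below all 3 sh-luc libraries. The mean was 0.613 ± 0.0416 FPKM in sh-luc and 0.370 ± 0.0520 FPKM in sh-IUR1 (SD, n = 3 each), a ratio of 0.603 (exact permutation test, two-sided, p = 0.1). On the log2(FPKM + 1) scale the difference was -0.24 (standard error 0.073, adjusted p = 0.930 from limma). Adding 0.1 rather than 1 FPKM before the logarithm gave -0.61. Its level is low, and its span overlaps that of 2 long noncoding genes. SLC25A22, the other glutamate carrier, was at 25.7, 25.8 and 28.4 FPKM in sh-luc and at 25.8, 26.8 and 26.9 FPKM in sh-IUR1, with overlapping groups. The ratio of SLC25A22 to SLC25A18 FPKM was 38.9, 44.4 and 47.3 for the sh-luc libraries and 64.5, 86.4 and 67.2 for the sh-IUR1 libraries.

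SLC25A44, which carries branched-chain amino acids into mitochondria, lies on chromosome 1 from 156194104 to 156212796. It was expressed at 9.99, 8.94 and 10.3 FPKM in sh-luc and at 8.66, 8.83 and 8.70 FPKM in sh-IUR1. The sh-IUR1 libraries were close to each other and below every sh-luc library, sh-luc r1 by a narrow margin. On the log2(FPKM + 1) scale the difference was -0.14 (standard error 0.078, adjusted p = 0.930 from limma). SLC25A29, a carrier of basic amino acids, was at 13.6, 13.5 and 13.2 FPKM in sh-luc and at 11.5, 11.0 and 13.4 FPKM in sh-IUR1. Here sh-IUR1 r2 lay inside the range of sh-luc, and the log2 fold change was -0.16 (adjusted p = 0.930 from limma). The RefSeq span of SLC25A29 overlaps that of YY1 by 4222 bases.

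Among the 8 amino acid carriers in the table, 2 had a higher and 6 a lower mean in sh-IUR1, and their median log2 fold change was -0.027. The aspartate/glutamate carriers of the malate-aspartate shuttle, SLC25A13 and SLC25A12, were expressed at means of 33.0 and 9.75 FPKM, and SLC25A13 was between 3.21 and 4.02 times as abundant as SLC25A12 in each library. The ornithine carrier SLC25A15, which serves the urea cycle, had the smallest variation of any carrier above 1 FPKM. It ranged from 10.9 to 11.6 FPKM, with a coefficient of variation of 2.04% over the 6 libraries. RefSeq lists 5 pseudogenes of SLC25A15, so its FPKM may be shared with near-identical copies.

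**Figure D3:**
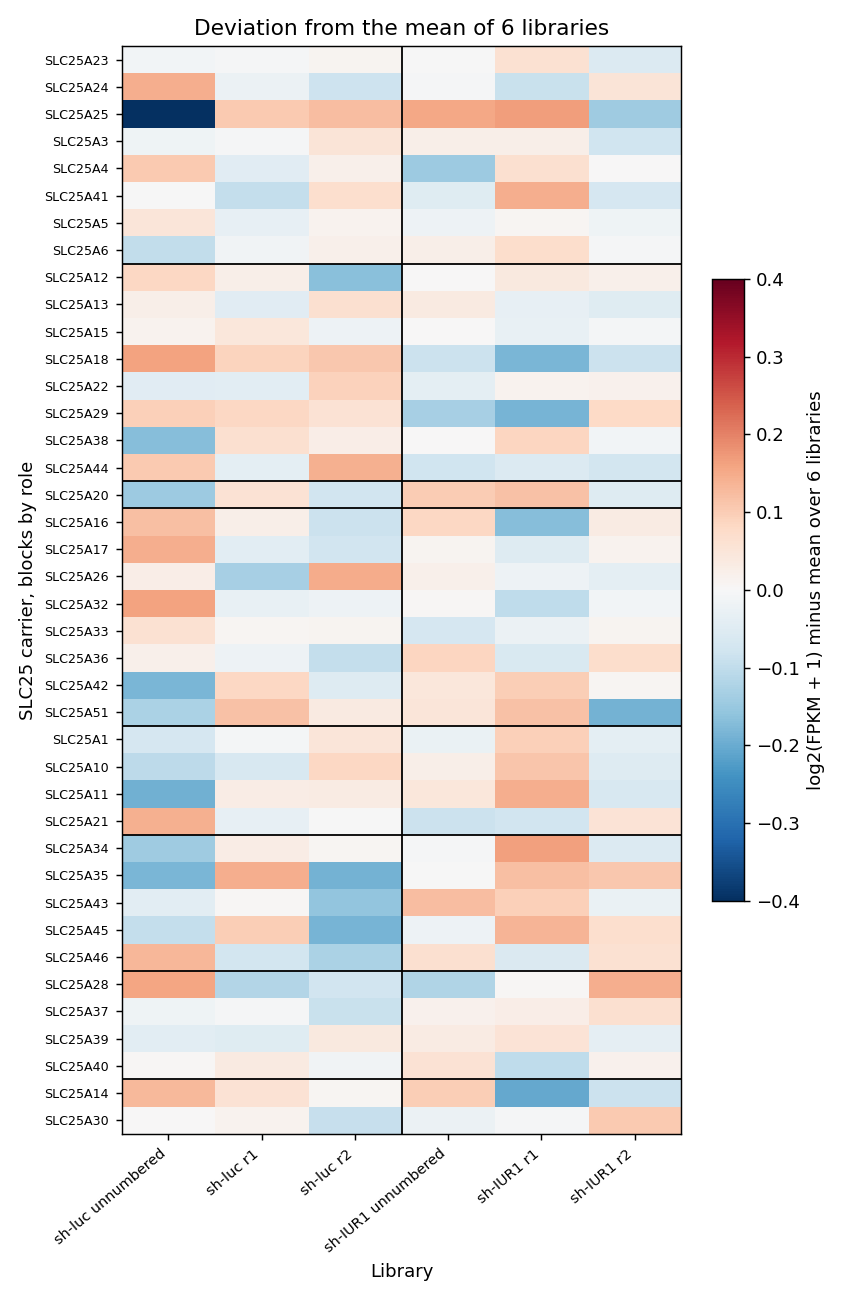
Log2(FPKM + 1) of the SLC25 carriers, each minus its own mean over the 6 libraries (blue below, red above the mean), with the sh-luc libraries left and the sh-IUR1 libraries right of the vertical line and blocks of carriers by role. The darkest cell is SLC25A25 in the unnumbered sh-luc library, at 21.4 FPKM against 25.8 FPKM or more in the others.

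The ADP/ATP carriers, which export ATP from the matrix in exchange for ADP, gave between 41.7% and 42.4% of the summed FPKM of the family in each library. SLC25A5 and SLC25A6 held ranks 1 and 2, and SLC25A4, the form of heart and skeletal muscle, rank 27 of 41. SLC25A5 was at 628, 594 and 614 FPKM in sh-luc and at 599, 611 and 601 FPKM in sh-IUR1. The groups overlapped, with a log2 fold change of -0.020 (95% interval -0.14 to 0.096, adjusted p = 0.962 from limma). SLC25A6 was at 381, 403 and 413 FPKM in sh-luc and at 414, 428 and 406 FPKM in sh-IUR1. Its lowest library was the unnumbered sh-luc library, and its log2 fold change was 0.061 (95% interval -0.063 to 0.19, adjusted p = 0.930 from limma). Without that library the log2 fold change was 0.028. SLC25A4 was at 11.2, 9.95 and 10.5 FPKM in sh-luc and at 9.21, 10.8 and 10.3 FPKM in sh-IUR1, again with overlap (log2 fold change -0.054, adjusted p = 0.942 from limma). SLC25A5 was between 56.3 and 65.0 times as abundant as SLC25A4 in each library. SLC25A6 made up 37.3%, 40.04% and 39.8% of the FPKM of these 3 genes in the sh-luc libraries and 40.5%, 40.8% and 39.9% in those of sh-IUR1. RefSeq lists 9 pseudogenes of SLC25A5 and 6 of SLC25A6 among 43 for the family, so the assignment of reads to these genes is uncertain.

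The 250 bases upstream of the RefSeq start of these paralogs, and of SLC25A25 described next, are shown because SLC25A4, SLC25A5 and SLC25A6 share a function at very different levels and SLC25A25 had the largest coefficient of variation between libraries among the carriers with a mean of at least 1 FPKM. They are read 5′ to 3′ on the strand of the gene (GRCh38.p14), from chr4:185143016-185143265 (plus) for SLC25A4, chrX:119468194-119468443 (plus) for SLC25A5, chrX:1392114-1392363 (minus) for SLC25A6 and chr9:128098257-128098506 (plus) for 1 of the starts of SLC25A25. Capitals mark matches on either strand to motifs of fixed letters. The ETS core was searched for as CCGGAAG, the cAMP response element as TGACGTCA, the E-box as CACGTG and the GC box as GGGCGG, and the CCAAT box by the letters of its name. None of these motifs is contained in another.
SLC25A4: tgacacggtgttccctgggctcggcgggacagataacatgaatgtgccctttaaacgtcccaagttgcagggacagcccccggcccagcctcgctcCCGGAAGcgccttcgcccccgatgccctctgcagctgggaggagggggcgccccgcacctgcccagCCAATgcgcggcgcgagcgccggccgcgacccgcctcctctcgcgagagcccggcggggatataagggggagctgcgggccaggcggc
SLC25A5: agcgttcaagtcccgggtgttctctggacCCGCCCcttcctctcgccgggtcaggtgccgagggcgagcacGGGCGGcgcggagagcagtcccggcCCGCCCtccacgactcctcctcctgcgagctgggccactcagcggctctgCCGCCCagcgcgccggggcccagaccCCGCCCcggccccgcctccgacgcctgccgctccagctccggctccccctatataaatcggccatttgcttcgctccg
SLC25A6: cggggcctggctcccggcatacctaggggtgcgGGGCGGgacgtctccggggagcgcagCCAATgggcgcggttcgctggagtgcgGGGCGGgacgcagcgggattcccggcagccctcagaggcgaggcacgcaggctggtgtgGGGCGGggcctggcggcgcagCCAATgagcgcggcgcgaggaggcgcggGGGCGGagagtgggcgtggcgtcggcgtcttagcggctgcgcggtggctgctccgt
SLC25A25: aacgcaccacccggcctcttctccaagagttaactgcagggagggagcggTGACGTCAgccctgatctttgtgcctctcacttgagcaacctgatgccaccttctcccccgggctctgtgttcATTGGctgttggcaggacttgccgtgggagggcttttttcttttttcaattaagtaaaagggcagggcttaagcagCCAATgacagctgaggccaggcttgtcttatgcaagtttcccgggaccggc
The upstream sequence of SLC25A4 held an ETS core and a CCAAT box. That of SLC25A5 held 5 GC boxes, and that of SLC25A6 held 4 GC boxes and 2 CCAAT boxes. For SLC25A25 the start shown was picked because its window held a cAMP response element, so that match was fixed by the choice. The same upstream sequence held 2 CCAAT boxes. The ETS core and the GC box matched among the windows of SLC25A25 are not in the bases shown. A match is a run of letters, not a measured binding site.

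RefSeq promoter windows, from 250 bases before to 50 bases after a start, were matched for 34 of the 41 carriers (43 windows). The ETS core was in 23.3% of these windows and in 10.3% of all 34961 windows. The E-box was in 18.6% against 7.27%, the cAMP response element in 6.98% against 1.85%, the CCAAT box in 46.5% against 34.6% and the GC box in 65.1% against 45.0%. The carriers with a cAMP response element were SLC25A25 and the pyrimidine nucleotide carriers SLC25A33 and SLC25A36. Carriers with an ETS core were SLC25A4, SLC25A14, SLC25A17, SLC25A20, SLC25A22, SLC25A24, SLC25A25, SLC25A26, SLC25A38 and SLC25A46. These shares are descriptions. Several windows belong to the same gene, and base composition was not taken into account. The carriers are genes listed with expression values, whereas the windows of all genes were not limited in that way.

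SLC25A25 belongs to the calcium-regulated carriers that exchange ATP-Mg for phosphate and set the size of the adenine nucleotide pool in the matrix. It is named here because it had the largest coefficient of variation of any carrier above 1 FPKM, 15.1%, and was chosen after its values were seen. It was expressed at 21.4, 30.8 and 31.2 FPKM in sh-luc and at 31.9, 32.2 and 25.8 FPKM in sh-IUR1. The unnumbered sh-luc library was the lowest and sh-IUR1 r2 the next, and the other 4 libraries lay within 1.5 FPKM of each other. The log2 fold change was 0.12 (standard error 0.14, adjusted p = 0.931 from limma), and without the unnumbered sh-luc library it was -0.054. The stress list mentioned above had its lowest values in the same 2 libraries, 5.17 and 5.95, and its part in the level of SLC25A25 was not tested. The related SLC25A23 was at 48.6, 48.8 and 49.4 FPKM in sh-luc and at 48.9, 51.1 and 47.1 FPKM in sh-IUR1, with a coefficient of variation of 2.65%. SLC25A24 had its highest value, 21.6 FPKM, in the unnumbered sh-luc library and was between 18.2 and 20.2 FPKM in the others. SLC25A25 made up 23.3% of the FPKM of these 3 paralogs in the unnumbered sh-luc library and between 27.7% and 31.9% in the others. SLC25A41, a shorter relative without the calcium-binding part, was between 0.49 and 0.76 FPKM, and its span overlaps that of SLC25A23 by 187 bases.

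The phosphate carrier SLC25A3, which supplies the ATP synthase, was at 390, 393 and 409 FPKM in sh-luc and at 401, 401 and 373 FPKM in sh-IUR1. The highest and the lowest value lay in r2 of either group, and the log2 fold change was -0.020 (95% interval -0.14 to 0.10, adjusted p = 0.962 from limma). Together, the 8 adenine nucleotide and phosphate carriers split evenly, with 4 higher and 4 lower in sh-IUR1, and 0 of them were without overlap.

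Mitoferrins bring iron into the matrix. Mitoferrin-1, SLC25A37, serves developing red cells, and mitoferrin-2, SLC25A28, is found more widely. SLC25A37 was at 19.95, 20.15 and 18.92 FPKM in sh-luc and at 20.47, 20.60 and 21.18 FPKM in sh-IUR1. The 3 sh-IUR1 values exceeded all 3 sh-luc values, the nearest by less than 0.5 FPKM, and the groups overlapped after median-ratio scaling. Means were 19.7 ± 0.660 and 20.8 ± 0.378 FPKM (SD, n = 3 each, exact permutation test, two-sided, p = 0.1). The log2 fold change was 0.074 (standard error 0.064, adjusted p = 0.930 from limma). SLC25A28 was at 12.9, 10.5 and 10.8 FPKM in sh-luc and at 10.5, 11.5 and 12.8 FPKM in sh-IUR1, and the groups overlapped over nearly their whole range. Its log2 fold change was 0.022 (adjusted p = 0.974 from limma), with a negative sign after quantile normalization and without sh-luc r1, sh-luc r2 or sh-IUR1 r2. SLC25A37 was between 1.54 and 1.95 times as abundant as SLC25A28 in each library.

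SLC25A38, which imports the glycine used for the opening step of heme synthesis, was at 32.3, 38.2 and 37.2 FPKM in sh-luc and at 36.5, 38.7 and 36.2 FPKM in sh-IUR1. The unnumbered sh-luc library was the lowest and the remaining libraries overlapped. The log2 fold change was 0.051 (adjusted p = 0.940 from limma), and without the unnumbered sh-luc library it was -0.020. The glutathione carrier SLC25A39 ranked 5 with a mean of 196 FPKM, and its paralog SLC25A40 was at 11.2 FPKM. SLC25A39 was between 16.4 and 19.6 times as abundant as SLC25A40 in each library, and the groups overlapped for both genes.

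**Figure D4:**
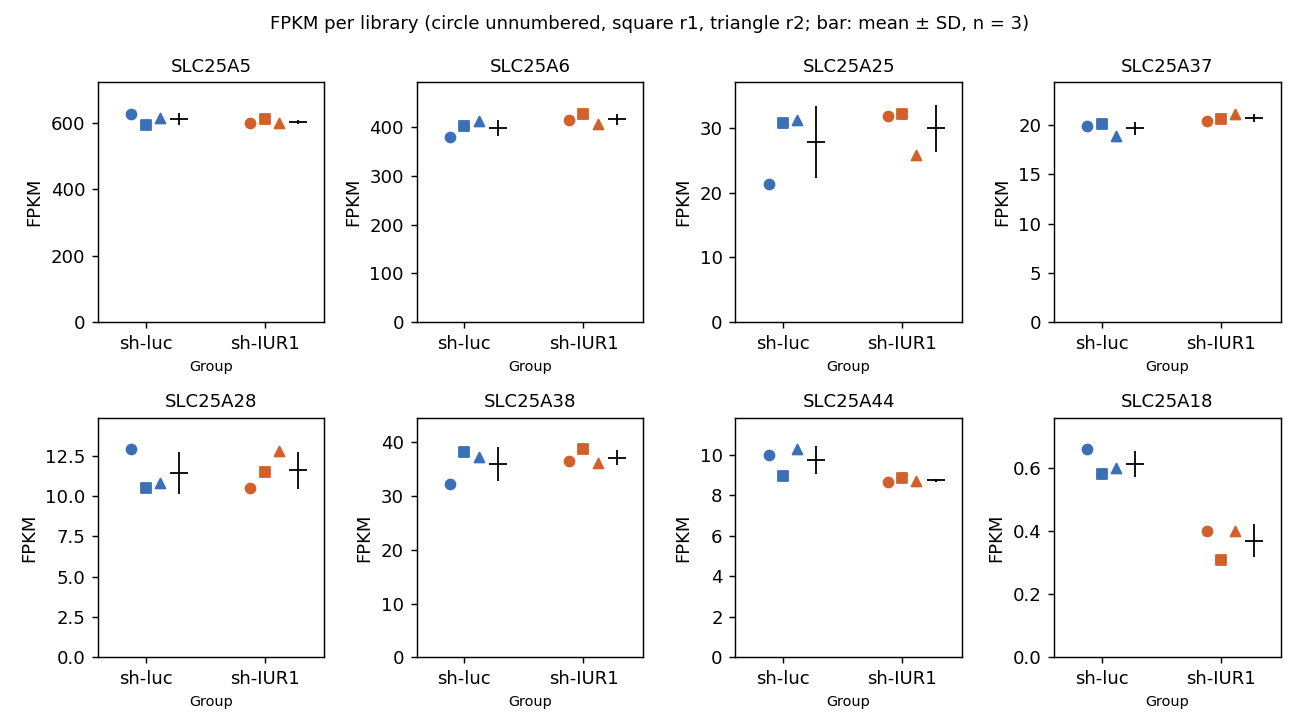
FPKM of 8 SLC25 carriers by group, 1 point per library (circle unnumbered, square r1, triangle r2), with the mean and SD of 3 libraries beside the points and each vertical axis starting at 0. SLC25A37, SLC25A44 and SLC25A18 have no overlap between groups, and SLC25A25 and SLC25A38 are lowest in the unnumbered sh-luc library.

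Of the carboxylate carriers, SLC25A1 exports citrate for the synthesis of lipids, SLC25A10 exchanges dicarboxylates, SLC25A11 exchanges oxoglutarate for malate and SLC25A21 carries oxodicarboxylates. Their means were 239, 50.2, 29.6 and 8.06 FPKM. SLC25A11 was at 25.7, 30.1 and 30.2 FPKM in sh-luc and at 30.5, 32.8 and 28.2 FPKM in sh-IUR1, lowest in the unnumbered sh-luc library. All 4 had overlapping groups, and their log2 fold changes lay between -0.072 and 0.086. The carnitine/acylcarnitine carrier SLC25A20, needed for the oxidation of long fatty acids, was at 13.7, 15.9 and 14.4 FPKM in sh-luc and at 16.4, 16.6 and 14.6 FPKM in sh-IUR1. Its log2 fold change was 0.11 (adjusted p = 0.930 from limma) and 0.064 without the unnumbered sh-luc library.

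The 9 listed carriers of cofactors and nucleotides had means between 7.36 and 33.1 FPKM. They include SLC25A33 and SLC25A36 for pyrimidine nucleotides, SLC25A26 for S-adenosylmethionine, SLC25A32 for folate and flavin, SLC25A16 and SLC25A42 for coenzyme A, SLC25A51 for NAD and SLC25A17 of peroxisomes. In sh-IUR1, 2 of the 9 had a higher and 7 a lower mean, and 0 were without overlap. SLC25A42 was at 21.8, 26.4 and 24.0 FPKM in sh-luc and at 25.66, 26.66 and 25.02 FPKM in sh-IUR1. Its log2 fold change was 0.10 (adjusted p = 0.930 from limma), and 0.034 without the unnumbered sh-luc library, its lowest. SLC25A32 was at 13.0, 11.3 and 11.4 FPKM in sh-luc and at 11.6, 10.7 and 11.4 FPKM in sh-IUR1. Its log2 fold change was -0.073 (adjusted p = 0.930 from limma), and -0.011 without the unnumbered sh-luc library, its highest.

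SLC25A14, a relative of the uncoupling proteins, was at 11.8, 11.1 and 10.7 FPKM in sh-luc and at 11.5, 9.12 and 9.98 FPKM in sh-IUR1. The unnumbered sh-IUR1 library lay within the range of sh-luc, and the log2 fold change was -0.13 (adjusted p = 0.930 from limma). SLC25A30, of the same branch, was between 4.41 and 5.20 FPKM. Of the 5 listed members for which no substrate is assigned here, 5 had a higher mean in sh-IUR1 and 0 were without overlap. SLC25A43 was at 6.82, 7.07 and 6.21 FPKM in sh-luc and at 7.76, 7.60 and 6.90 FPKM in sh-IUR1, with a log2 fold change of 0.13. SLC25A35 was at 1.83, 2.55 and 1.82 FPKM in sh-luc and at 2.21, 2.49 and 2.46 FPKM in sh-IUR1, with a log2 fold change of 0.15. The highest value of SLC25A35 was in sh-luc r1, and both genes had an adjusted p of 0.930 from limma. SLC25A46, which acts in the outer membrane in mitochondrial dynamics, was between 11.3 and 13.7 FPKM. SLC25A34 and SLC25A45 were below 1 FPKM in all 6 libraries, and the span of SLC25A45 overlaps that of FRMD8 by 8510 bases.

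The unnumbered sh-luc library was the lowest of the 6 libraries for 10 carriers and the highest for 14, together 58.5% of the carriers against 62.5% of all genes tested. It was the lowest for 24.4% of the carriers and for 38.4% of all genes. Those lowest there include SLC25A6, SLC25A1, SLC25A10, SLC25A11, SLC25A20, SLC25A25, SLC25A38 and SLC25A42, and those highest include SLC25A5, SLC25A14, SLC25A17, SLC25A24, SLC25A28 and SLC25A32. The median coefficient of variation over the 6 libraries was 6.33% for the 37 carriers above 1 FPKM and 7.58% for all genes above that level.

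Genes that act beside the carriers were examined as well. Among 16 genes that bring carrier proteins into the inner membrane (the TOM complex, the small TIM chaperones, TIMM22, TIMM29 and AGK), 6 had a higher and 10 a lower mean in sh-IUR1, with a median log2 fold change of -0.040 and 0 past an adjusted p of 0.05 in limma (0 at an unadjusted p under 0.05, where 2.65% of all genes tested lay). Among 18 other mitochondrial transporters, 8 were higher and 10 lower, with a median of -0.012, 0 past the adjusted threshold and 1 at an unadjusted p under 0.05, against the same 2.65% of all genes. The latter was MPC1 of the mitochondrial pyruvate carrier, at 80.4, 71.3 and 72.6 FPKM in sh-luc and at 68.2, 68.4 and 66.3 FPKM in sh-IUR1 (log2 fold change -0.14, adjusted p = 0.930 from limma). Its partner MPC2 was at 101, 89.3 and 93.3 FPKM in sh-luc and at 88.5, 87.5 and 86.2 FPKM in sh-IUR1. Both were without overlap, and both were highest in the unnumbered sh-luc library. Without overlap were 4 of the 18 transporters (22.2%), VDAC2 among them, against 7.07% of all genes tested. Of the 5 family members with other names, 4 are listed. UCP2 was at 57.3, 71.9 and 69.3 FPKM in sh-luc and at 76.6, 88.2 and 61.8 FPKM in sh-IUR1, with overlapping groups, and UCP3, MTCH1 and MTCH2 overlapped too. The stress list had 17 of 17 tested genes higher in sh-IUR1, a median log2 fold change of 0.43, 0 genes past the adjusted threshold in limma and 0 at an unadjusted p under 0.05, again beside 2.65% of all genes. Without the unnumbered sh-luc library its median was 0.060.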

How the data were processed

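RNA-seq of 6 libraries of K562 cells was analysed, 3 sh-luc and 3 sh-IUR1, grouped by the sample titles. Per the methods, the authors removed adaptor sequence, masked bases of poor quality or low complexity, mapped reads to hg38 and computed expression with samtools (SAMtools 0.1.19 in the submitters' processing notes). The aligner and annotation are not given in the sources used here. The deposited values are FPKM with 2 decimals, although the methods name RPKM. The authors also deposited a score per gene and library (the FPKM standardized over the 6 libraries), a cluster number (1 of 9) and a membership fraction, none of which entered a test. The smallest standard deviation in the table is 0.0501 FPKM, so nearly constant genes are outside it. Values carry no read counts, so precision comes from the libraries alone.

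RefSeq (GRCh38.p14) gave symbols for 12363 of 12486 identifiers. The 12276 genes whose mean reached 0.1 FPKM were fitted as log2(FPKM + 1) with limma 3.58.1 in R 4.3.3 (eBayes with a trend, Benjamini-Hochberg adjustment, two-sided). Fold changes on this scale understate changes of genes with low FPKM. The fit was tested on simulated data with independent noise and added changes larger than those of any carrier, so smaller differences were not covered. Fold changes were printed for the 4 carriers per direction with the smallest p and a mean of at least 1 FPKM, for SLC25A3, SLC25A4, SLC25A5, SLC25A6, SLC25A28, SLC25A37 and SLC25A38, and, after their values were seen, for SLC25A18 and SLC25A25. The summaries by role give the remaining ones. Single values of 3 genes, 1 of them a carrier, are not reported here and not plotted, but these genes stay in the counts. Members, lists, motifs and named genes were chosen with earlier results of these data known. Alternatives changed the pseudocount (0.1), the filter (none, or 1 FPKM), the scaling (median ratio, or quantiles), the eBayes trend (none) or the design (a replicate block), or left out each library in turn. Python 3.11.15 with numpy 2.4.6, pandas 2.3.3 and matplotlib 3.10.9 served for the rest. P-values from limma set each group difference against the spread between these libraries, moderated over the genes tested. Whether the libraries of a group come from separate infections is not given in the sources used here. Without knowledge of strand-specific counting, overlapping genes, which 26 of the 41 carriers have in RefSeq, cannot be separated.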

Additional observations from a re-analysis of the deposited data

How the results depend on the processing

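Under the 13 alternatives, 0 carriers passed an adjusted p-value of 0.05 in limma, and the adjusted p-values of the 17 carriers with printed tests lay between 0.667 and 0.9997. Of 220 log2 fold changes of these carriers under alternatives, 209 kept their sign and 11 changed it. The cause of the changes was not tested. A change of filter, the fit without a trend and the replicate block cannot alter a log2 fold change here. Signs under those settings were therefore fixed in advance and are no check. Under quantile normalization SLC25A5 had a log2 fold change of 0.012, SLC25A3 of 0.018 and SLC25A28 of -0.0055. With each library left out in turn it ranged from -0.046 to 0.11 for SLC25A28, from -0.037 to 0.015 for SLC25A3, from -0.099 to 0.0062 for SLC25A4, from -0.020 to 0.097 for SLC25A38 and from -0.054 to 0.22 for SLC25A25. SLC25A38 and SLC25A25 turned negative when the unnumbered sh-luc library was dropped, and SLC25A4 turned positive when the unnumbered sh-IUR1 library was.

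The median log2 fold change of the carriers was -0.012 with median-ratio scaling, and from -0.0047 to 0.015 with a library left out. That scaling left 2 carriers without overlap (4.88%, against 7.31% of all genes). Between 4 and 11 carriers were without overlap when a library was left out, which leaves fewer values to overlap: 10 (24.4%, against 22.0% of all genes) without sh-luc r1, 9 (21.95%, against 14.2%) without sh-luc r2 and 11 (26.8%, against 25.1%) without sh-IUR1 r2. It was 4 (9.76%) without the unnumbered sh-luc library, the unnumbered sh-IUR1 library or sh-IUR1 r1, against 12.6%, 11.9% and 14.2% of all genes. Alternatives for the neighbouring lists were chosen after seeing the data. The median of the family members with other names was 0.015 at a minimum of 1 FPKM, which drops UCP3, and that of the other transporters lay between -0.032 and -0.0089 with a library left out. With the replicate block the number of carriers called was 0. In this balanced design the block cannot alter log2 fold changes or the overlap of libraries. The median of the carriers, 0.0027, and the number without overlap, 3, are therefore those of the main fit. The block changed no call. With the block, 533 of all genes tested had an unadjusted p under 0.05 in limma, against 325 in the main fit. The correlation between deviations of libraries with one label was 0.044 (unnumbered), 0.39 (r1) and -0.34 (r2). Libraries with different labels were not compared in this way, so these values cannot decide whether shared numbers mark a pairing. The unknown depth limits what can be said of the 4 carriers under 1 FPKM.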
